A study of Mus musculus with 2 samples.

Results

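The genes described here encode interleukins, chemokines, tumour necrosis factor (TNF) superfamily ligands, interferons and their receptors, measured in single cells sorted as cones, by their green fluorescence, from a mouse with inherited cone degeneration. They were chosen by symbol alone, as every gene whose symbol begins with Il, Ccl, Cxcl, Ccr or Cxcr and a digit, or with Tnfsf, Tnfrsf or Ifn. *Il18*, *Il18bp*, *Il18r1* and *Il1b* were left out. Of 17774 genes with a row in the counts, 105 met this rule, made up of 39 ligands, 64 receptors and 2 antisense RNAs.

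Cytokines are secreted or membrane-bound proteins that carry signals between cells, and each acts through receptor chains that usually work in pairs. Chemokines attract leukocytes through G protein-coupled receptors, most interleukins and interferons signal through JAK kinases and STAT factors, and TNF family receptors act largely through TRAF adaptors and NF-kappaB. In the retina these molecules are best known from microglia, Müller glia and infiltrating leukocytes, and some receptors serve as decoys that bind a ligand without passing the signal on.

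Both groups came from C57BL/6 mice that carried the *Pde6c* cpfl1 mutation and a *Chrnb4*.eGFP transgene, in which the *Chrnb4* promoter drives green fluorescent protein in cones. One library was made from retinae without injection and one from retinae that had received a single intravitreal dose of GSK-J4 at postnatal day (PN) 14, given as 10 µM. GSK-J4 is an inhibitor of the Jumonji demethylases that act on H3K27. Retinae were collected at PN 24, 10 days after the injection, and GFP-positive cells were sorted 1 per well. No vehicle-injected library was analysed here, and the cells after GSK-J4 carry "adult" in their names although their age is given as PN 24. With 1 library and 1 plate per condition, treatment, injection, plate and animal cannot be told apart, and no difference below has a replicate check or a P-value.

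The filter of the study kept 82 of the 85 deposited uninjected cells and 64 of the 66 deposited after GSK-J4. The study states a larger number of GSK-J4-treated cells after quality control than the counts used here hold, and as many uninjected cells as were deposited. The cells kept here held 1113424 and 208578 counts, with medians per cell of 8118 (range 860 to 98250) and 2335.5 (420 to 15371), and 54 well positions occurred in both libraries. The cone label was met in only 1 library. Each of the 82 uninjected cells had counts of at least 3 of 11 cone marker genes, whereas 50 of the 64 GSK-J4-treated cells had no count of any of the 11, and 0 of 64 had counts of 3 markers or more (upper limit 5.60%). Cone markers took 2.59% of the uninjected and 0.213% of the GSK-J4-treated counts. All intervals are 95% intervals and cover counting error only.

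Counts of cytokine system genes were few. Of the 105 genes, 23 fell under the filter of 3 cells with a count, with 0 to 3 counts each over both libraries, and 4 of these had none. Among the 82 that passed, 53 had a count in fewer than 10% of the cells of either library. The remaining 29 genes (9 ligands and 20 receptors) are the ones compared below. The measure is the log-fold, the natural log of the mean count per 10000 counts of a cell plus 1, GSK-J4-treated minus uninjected, and a gene is called higher or lower beyond 0.3 log-fold.

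In GSK-J4-treated cells 7 of the 29 genes were higher (24.1%), against 20.4% of all 7682 genes with this detection. These were the interleukin subunit gene *Il23a* and the receptor genes *Il13ra2*, *Il12rb1*, *Il17re*, *Il21r*, *Tnfrsf22* and *Tnfrsf14*. Another 5 genes were lower (17.2%, against 24% of all genes), namely the chemokine genes *Ccl9*, *Ccl27a* and *Cxcl16*, the TNF ligand gene *Tnfsf12* and the interferon receptor gene *Ifnar2*. The other 17 lay within 0.3 log-fold. Both shares were close to those of all genes, so the counts of called genes do not set the cytokine system apart. The median log-fold was 0.072 over the 29 genes and -0.0050 over all genes. Judged instead by whether the Poisson intervals of the summed levels overlapped, 9 genes were higher (31.0%, against 22.0% of all genes) and the same 5 were lower (17.2%, against 24%). By this measure *Tnfrsf1b*, *Il17rb* and *Il12b* joined the higher genes and *Il21r* left them.

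**Figure D1:**
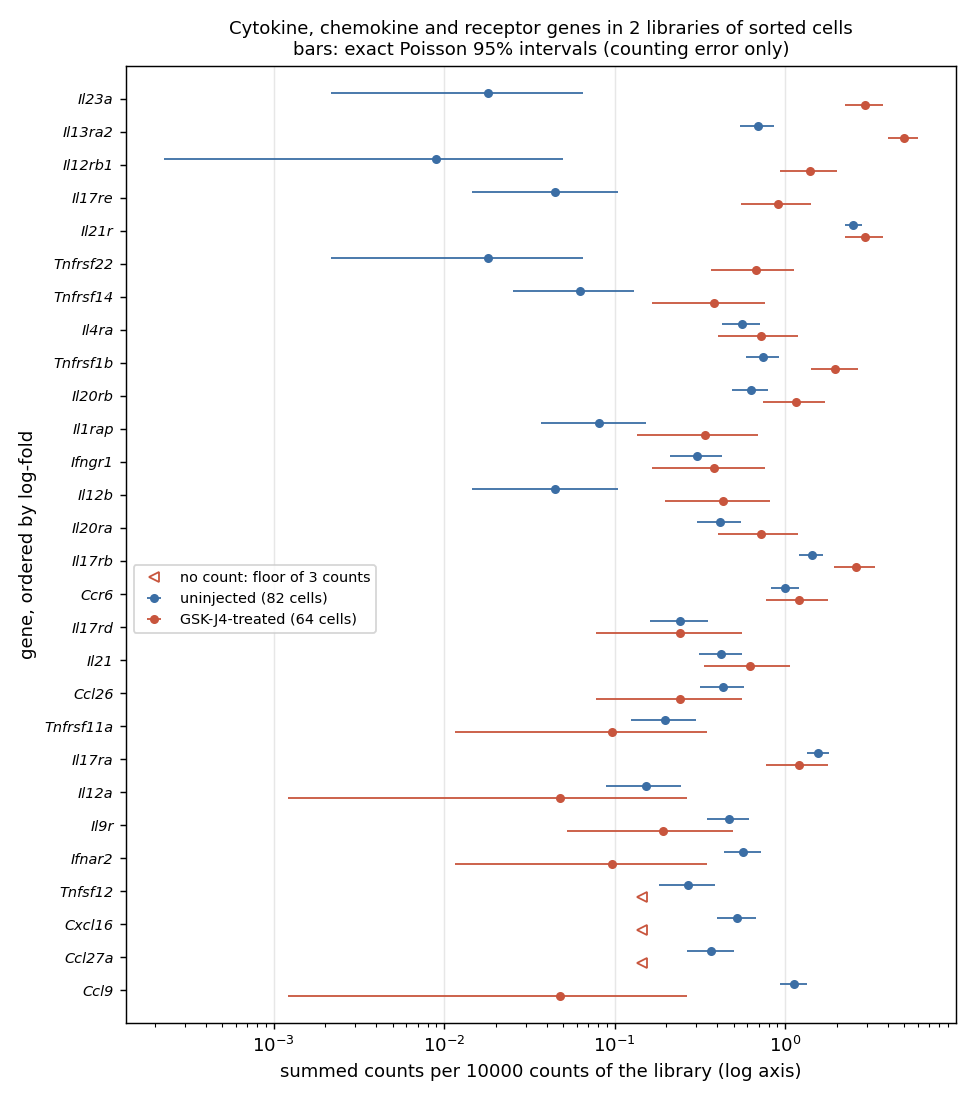
Summed counts per 10000 counts of the library (log axis) for 28 of the 29 genes seen in 10% or more of the cells in either library, ordered by log-fold, in uninjected (blue) and GSK-J4-treated cells (red). Points are library sums, bars exact Poisson 95% intervals, and open triangles the floor of 3 counts for the 3 genes with no count. Among genes with a count in both libraries, *Il23a* and *Il12rb1* show the widest gaps to the right and *Ccl9* the widest to the left.

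Taken as a sum, the 82 genes made up 0.191% (0.183 to 0.199%) of the uninjected counts and 0.341% (0.317 to 0.367%) of the GSK-J4-treated counts, from 2125 and 712 counts. This was 1.79-fold (1.64 to 1.95) higher in GSK-J4-treated cells. Olfactory and vomeronasal receptor genes, which are not known to be used by cones and serve here as a measure of background, were also higher, at 0.624% and 1.43% of the counts or 2.29-fold (2.19 to 2.39). Of 70 such genes past the same detection limit, 31 were higher and 3 lower, with a median log-fold of 0.22. The part of this background in the cytokine values was not tested.

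The classes of genes differed in direction. Interleukin ligands went from 95 to 90 counts, 5.06-fold (3.75 to 6.82) higher once scaled to the library totals, and 61 of the 90 were those of *Il23a*. Interleukin receptors went from 1046 to 413 counts, or 2.11-fold (1.88 to 2.36) higher, with 4 of 12 detected genes called higher and 0 lower, against 20.4% and 24% of all genes. This rise was no larger than the 2.29-fold of the olfactory and vomeronasal receptor genes. TNF receptors were 2.39-fold (1.85 to 3.06) higher, from 208 and 93 counts, and chemokine receptors 1.36-fold (1.03 to 1.78), from 271 and 69. The interval of the TNF receptors included 2.29, the fold of the olfactory and vomeronasal receptor genes, and that of the chemokine receptors lay below it. Chemokine ligands were the class that was lower, with 313 and 16 counts, a ratio of 0.273 (0.154 to 0.450), and 3 of their 4 detected genes were called lower, against 24% of all genes. The TNF ligands (69 and 15 counts, ratio 1.16, 0.617 to 2.05) and the interferon receptors (119 and 14 counts, ratio 0.628, 0.333 to 1.10) did not differ beyond counting error.

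**Figure D2:**
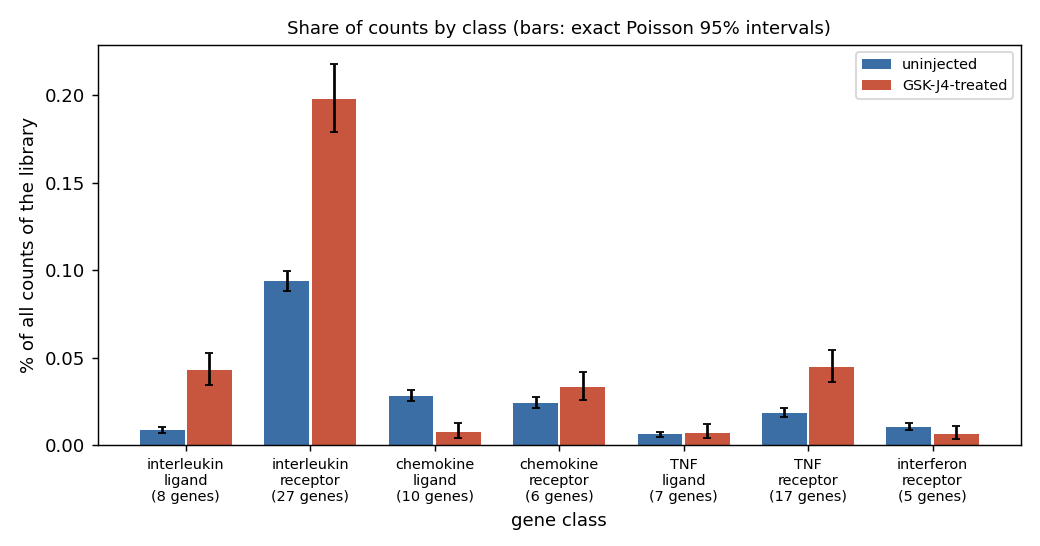
Summed counts of each gene class as a percent of all counts of the library, with exact Poisson 95% intervals and the number of genes past the filter under each class. Interleukin receptors held the tallest bars, at 0.0939% and 0.198%, and chemokine ligands were the class with the lower bar in GSK-J4-treated cells beyond the intervals, at 0.0281% and 0.00767%.

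*Il23a* encodes p19, the subunit that is particular to interleukin-23. It had 2 (0.242 to 7.22) counts without injection and 61 (46.7 to 78.4) after GSK-J4, a log-fold of 1.62, and its scaled level was 163-fold higher (43.2 to 1375). After GSK-J4, 42.2% (29.9 to 55.2%) of the cells had a count, compared with 2.44% (0.297 to 8.53%) without injection. Most of the sum sat in 1 cell, which held 35 of the 61 counts, while the other 26 cells held exactly 1 count each. Without the highest cell of each library the log-fold was 0.85. The gene lies on chromosome 10 from 128296139 to 128298752 (GRCm38, minus strand).

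The partner of p19 is p40, encoded by *Il12b*, which had 5 counts in 3 uninjected cells and 9 in 7 GSK-J4-treated cells. Its log-fold of 0.15 was within the threshold, although its summed level was 9.61-fold (2.89 to 36.5) higher. *Il12a*, whose p35 product pairs with p40 to form interleukin-12, had 17 counts in 15 uninjected cells and 1 count in GSK-J4-treated cells (log-fold -0.24, ratio 0.314, 0.00751 to 2.0). So the p19 gene was past the threshold and the genes of both other subunits were not, and the interval of *Il12a* does not settle its direction.

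*Il12rb1* encodes the receptor chain shared by interleukin-12 and interleukin-23. It had 1 (0.0253 to 5.57) counts without injection and 29 (19.4 to 41.6) after GSK-J4, in 1.22% (0.0309 to 6.61%) and 42.2% (29.9 to 55.2%) of the cells. The log-fold was 0.88 and the scaled level 155-fold (25.7 to 6323) higher. No single cell carried this gene, since 26 of its 27 cells held 1 count and the other held 3. It lies on chromosome 8 from 70808449 to 70821424. The chains that pair with it, *Il12rb2* and *Il23r*, were not analysed here.

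*Il23a* and *Il12rb1* were each found in 27 GSK-J4-treated cells, and 15 cells had both. In uninjected cells, none of the 2 and 1 cells overlapped. GSK-J4-treated cells with *Il23a* had a median of 4048 counts, and those without it 1215, so the cells with this gene were the deeper ones. A total of 304 genes, 7 of them olfactory or vomeronasal receptors, were found in at least 42.2% of the GSK-J4-treated cells. With each cell thinned to 867 counts, which left 81 and 50 cells, *Il23a* was found in 0% of cells without injection and 14% after GSK-J4 and *Il12rb1* in 1.23% and 18%.

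*Il13ra2* encodes a receptor that binds interleukin-13 with high affinity and is known mainly as a decoy. It had 77 (60.8 to 96.2) counts without injection and 103 (84.1 to 125) after GSK-J4, which came from 23.2% (14.6 to 33.8%) and 51.6% (38.7 to 64.2%) of the cells. The log-fold was 0.93 and the scaled level 7.14-fold (5.26 to 9.72) higher. One GSK-J4-treated cell held 69 of the 103 counts, 30 cells held 1 and 2 cells held 2, whereas uninjected cells reached 19, 10 and 10. Without the highest cell of each library the log-fold was 0.75, and over the wells of plate columns 7 to 12, which do not include the cell with 69, it was 0.19. After thinning, 3.70% of cells without injection and 16% after GSK-J4 had a count.

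The promoter of *Il13ra2* is shown because this gene was the most widely found of the higher genes in GSK-J4-treated cells, and that of *Il17re* beside it for contrast. Both windows run from 250 bases before to 50 after the start site in the RefSeq table (build GRCm38.p6), at chrX:147429143-147429442 (minus strand) and chr6:113458521-113458820 (plus strand). Capitals mark matches to any of the motifs searched on both strands, which were a TATA box (TATAAA), kappaB (GGG NN TT N CC), STAT (TTCNNNGAA), an interferon response element (GAAA NN GAAA) and AP-1 (TGANTCA).
*Il13ra2*: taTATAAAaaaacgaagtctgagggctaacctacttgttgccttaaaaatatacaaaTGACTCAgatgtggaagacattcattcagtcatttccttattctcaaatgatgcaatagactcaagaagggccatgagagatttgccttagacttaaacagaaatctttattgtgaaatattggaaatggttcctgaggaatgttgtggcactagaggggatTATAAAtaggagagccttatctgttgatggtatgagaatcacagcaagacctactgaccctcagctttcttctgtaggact
*Il17re*: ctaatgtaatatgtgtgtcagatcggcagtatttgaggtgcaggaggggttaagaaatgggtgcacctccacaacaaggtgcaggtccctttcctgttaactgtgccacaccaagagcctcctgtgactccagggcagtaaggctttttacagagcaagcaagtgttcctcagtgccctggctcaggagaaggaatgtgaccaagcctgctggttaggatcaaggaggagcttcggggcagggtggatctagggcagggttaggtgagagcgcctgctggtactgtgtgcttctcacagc
The *Il13ra2* window held TATAAA at 31 and 248 bases before the start and TGACTCA at 193 bases before it, and the *Il17re* window held no match. Of all 32851 promoter windows in the table, 13.6% held the TATA box, 7.81% AP-1, 8.30% STAT, 4.79% kappaB and 3.44% the interferon element. A promoter was in the table for 21 of the 29 genes, among them 4 of the 7 higher and 3 of the 5 lower genes. *Il23a*, *Il12rb1* and *Tnfrsf22*, and *Cxcl16* and *Tnfsf12* among the lower genes, had no entry.

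*Il4ra*, whose product carries interleukin-4 and interleukin-13 signals, had 62 counts without injection and 15 after GSK-J4, with a log-fold of 0.24. Its scaled levels did not differ beyond counting error (1.29-fold, 0.682 to 2.30). *Il13* itself was among the genes under the filter, with 3 counts without injection and 0 after GSK-J4, and *Il13ra1* was not analysed here.

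*Il17re* encodes the chain that binds interleukin-17C, together with the shared chain of *Il17ra*. It had 5 (1.62 to 11.7) counts in 5 uninjected cells and 19 (11.4 to 29.7) in 17 GSK-J4-treated cells, a log-fold of 0.80 and a scaled level 20.3-fold (7.33 to 69.5) higher. As with *Il12rb1*, the counts were spread, with 16 of the 17 cells holding 1 count. *Il17ra* had 174 counts in 37.8% and 25 in 17.2% of the cells, within the threshold and with no difference beyond counting error (log-fold -0.18, ratio 0.767, 0.483 to 1.17). *Il17rc* had 5 and 1 counts, and *Il17rd* 27 and 5 (log-fold 0.045). *Il17rb*, the receptor chain for interleukin-25, had 159 and 54 counts and a summed level 1.81-fold (1.31 to 2.48) higher, but a log-fold of only 0.072, and 29 of its 54 counts lay in 1 cell. *Il17rb* overlaps *Actr8*, and no source says that reads were counted by strand.

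*Il21r*, the receptor of interleukin-21, had the most counts of all 29 genes in uninjected cells. It went from 280 (248 to 315) counts in 54.9% of uninjected cells to 61 (46.7 to 78.4) in 39.1% of GSK-J4-treated cells. Its log-fold of 0.45 was positive, yet the scaled levels overlapped (1.16-fold, 0.867 to 1.54), and with median-ratio scaling the log-fold turned to -0.28. In uninjected cells 2 cells held 78 and 67 counts, and in GSK-J4-treated cells 1 held 27. Without the highest cell of each library the log-fold was 0.14. The direction of *Il21r* is therefore not settled by these libraries. Its ligand gene *Il21* had 47 and 13 counts (log-fold 0.0018), and *Il2rg*, the chain it shares with other interleukin receptors, 12 and 8 (log-fold 0.12).

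*Tnfrsf22* encodes a decoy receptor for TRAIL. It had 2 (0.242 to 7.22) counts in 2 uninjected cells and 14 (7.65 to 23.5) in 10 GSK-J4-treated cells, a log-fold of 0.41 and a scaled level 37.4-fold (8.58 to 339) higher. One cell held 5 of the 14 counts and the other 9 held 1 each. The TRAIL gene *Tnfsf10* had 2 counts in each library, the related decoy gene *Tnfrsf23* had 3 and 1, and the signalling receptor gene *Tnfrsf10b* had 6 and 2, so none of these passed the detection limit. *Tnfrsf22* overlaps *E230032D23Rik* on the other strand.

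*Tnfrsf14*, or HVEM, is the receptor of LIGHT and rested on the fewest counts of the higher genes. It had 7 (2.81 to 14.4) counts without injection and 8 (3.45 to 15.8) after GSK-J4, with a log-fold of 0.33 and a scaled level 6.10-fold (1.93 to 19.8) higher. Its share of GSK-J4-treated cells was 10.9%, which equals the 90th percentile among 396 olfactory and vomeronasal receptor genes in that library. *Il12b*, *Il1rap*, *Ifngr1* and *Il21* were each found in the same share of GSK-J4-treated cells, and in 3.66%, 6.10%, 15.9% and 23.2% of the cells without injection, where that percentile was 12.2%. The part of background in these shares was not tested. The LIGHT gene *Tnfsf14* had 9 counts without injection and 0 after GSK-J4. *Tnfrsf1b*, or TNFR2, had 82 and 41 counts and a summed level 2.67-fold (1.79 to 3.93) higher, with a log-fold of 0.23 and 20 of the 41 counts in 1 cell.

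**Figure D3:**
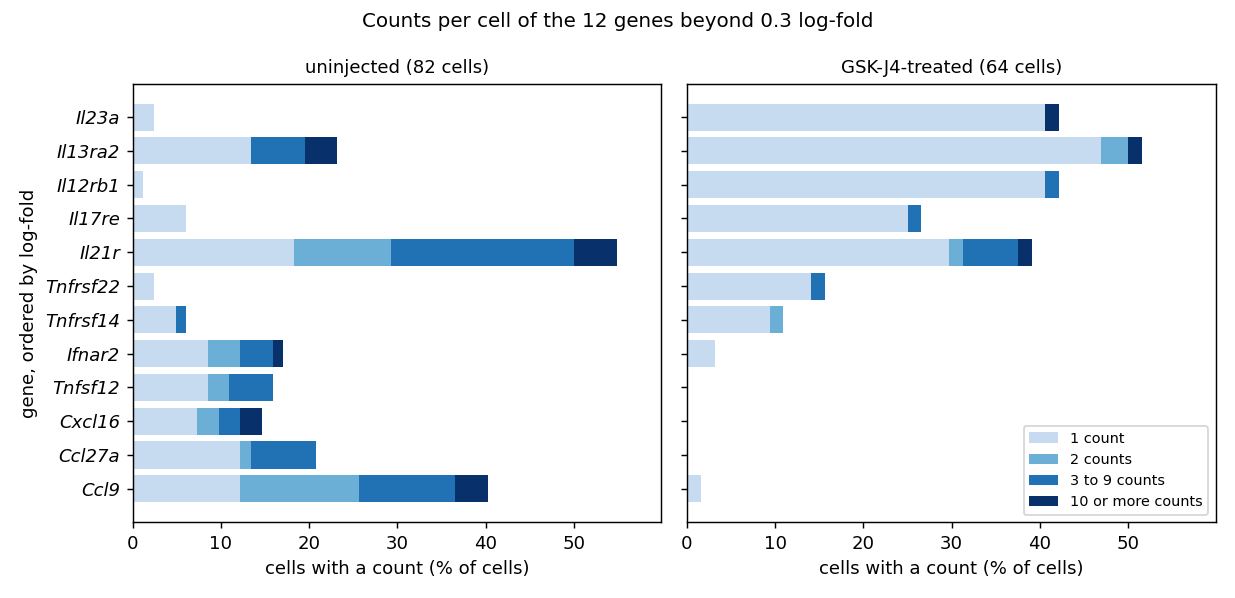
Percent of the cells of each library with 1, 2, 3 to 9 or 10 or more counts of each of the 12 genes beyond 0.3 log-fold. In GSK-J4-treated cells the bars of *Il23a*, *Il12rb1* and *Il17re* consisted almost wholly of cells with 1 count, while *Ccl9* and *Il21r* in uninjected cells had a broad range of counts per cell.

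Single counts were the rule in GSK-J4-treated cells. Over the 19 cytokine system genes found in at least 10% of these cells, the median share of positive cells with exactly 1 count was 85.7% (range 53.3 to 100%), against a median of 80.0% over all 3137 such genes. In uninjected cells it was 54.2% over 22 genes, against 60.0% over 6783. The number of the 82 genes found per cell had the same median of 5 in both libraries, with ranges of 0 to 37 and 0 to 19, despite the lower depth of GSK-J4-treated cells. After thinning the medians were 1 and 2.

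Among the ligands, *Ccl9* had the lowest log-fold. This chemokine, also called MIP-1γ, attracts myeloid cells. It had 125 (104 to 149) counts, seen in 40.2% (29.6 to 51.7%) of uninjected cells, and 1 (0.0253 to 5.57) count in 1.56% (0.0396 to 8.40%) of GSK-J4-treated cells. The log-fold was -0.91 and the scaled level 23.4-fold (4.13 to 932) lower. The uninjected counts were spread over 33 cells, with 25 in the highest and 11 in the next, and after thinning 8.64% of cells without injection and 0% after GSK-J4 had a count. *Ccr1*, the receptor of CCL9, had 1 and 2 counts. *Ccl9* lies on chromosome 11 from 83572919 to 83578636 with no overlapping gene.

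*Ccl27a* encodes a chemokine of epithelia that attracts T cells through CCR10. It had 41 (29.4 to 55.6) counts, seen in 20.7% (12.6 to 31.1%) of uninjected cells, and 0 of 64 GSK-J4-treated cells had a count (upper limit 5.60%). Set against 3 counts, the floor used for a library with none, it was at least 2.56-fold lower, with a log-fold of -0.57. Its counts did not depend on 1 cell, the highest 2 holding 7 and 6. *Ccl27a* overlaps *Il11ra1* on the other strand and has a near copy, *Ccl27b*, with 2 counts in uninjected cells, so its reads are uncertain. *Ccl28*, which shares the receptor, had 1 count in each library, and *Ccr10* was not analysed here.

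The promoters of *Ccl9* and *Ccl27a* are shown because these were the lower genes whose log-folds stayed beyond -0.3 under each of 10 alternative settings. Passing the detection limit within a setting was not required. The windows lie at chr11:83578587-83578886 and chr4:41770163-41770462 (both minus strand, RefSeq, GRCm38.p6), with the same motifs in capitals. The second of these is 1 of 3 windows listed for *Ccl27a*, and the only one with a match.
*Ccl9*: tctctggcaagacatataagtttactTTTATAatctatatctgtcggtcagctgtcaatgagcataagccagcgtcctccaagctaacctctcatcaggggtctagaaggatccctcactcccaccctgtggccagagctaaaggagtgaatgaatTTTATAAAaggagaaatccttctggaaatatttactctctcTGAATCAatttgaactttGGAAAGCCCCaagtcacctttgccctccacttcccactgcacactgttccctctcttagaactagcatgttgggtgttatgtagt
*Ccl27a*: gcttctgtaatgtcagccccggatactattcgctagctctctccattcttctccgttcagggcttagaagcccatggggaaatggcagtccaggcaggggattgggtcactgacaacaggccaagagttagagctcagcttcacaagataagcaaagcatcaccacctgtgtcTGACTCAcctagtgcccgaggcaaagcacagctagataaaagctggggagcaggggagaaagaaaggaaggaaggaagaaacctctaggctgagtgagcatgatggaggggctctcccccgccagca
The *Ccl9* window held TTTATAAA at 94 and TTTATA at 224 bases before the start, TGAATCA at 53 and a kappaB match, GGAAAGCCCC, at 35. The first of these is 2 TATA box matches, 1 on each strand, that overlap. The *Ccl27a* window held TGACTCA at 77 bases before the start. The letters of the TATA box and of AP-1 were thus found in windows of both higher and lower genes. Among called genes whose windows are not printed, *Il21r* held a kappaB match, GGCAAGTCCC, at 231 bases before the start. *Tnfrsf14* held an interferon element match, TTTCATTTTC, at 64 and the lower gene *Ifnar2* a STAT match, TTCCTGGAA, at 214.

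*Cxcl16*, a chemokine made as a membrane protein, had 58 (44.0 to 75.0) counts, seen in 14.6% (7.80 to 24.2%) of uninjected cells, and none in GSK-J4-treated cells. It was at least 3.62-fold lower, with a log-fold of -0.48. One uninjected cell held 31 of the 58 counts, and the log-fold was -0.15 without it. *Cxcl16* overlaps *Zmynd15* on the other strand. *Ccl26*, the fourth detected chemokine ligand, had 48 counts in 11 uninjected cells and 5 in 3 GSK-J4-treated cells, with a log-fold of -0.0065 and a ratio of 0.556 (0.173 to 1.39).

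*Tnfsf12* encodes TWEAK, a TNF ligand of many tissues. It had 30 (20.2 to 42.8) counts, seen in 15.9% (8.72 to 25.6%) of uninjected cells, and none in GSK-J4-treated cells, at least 1.87-fold lower, with a log-fold of -0.36. The counts reached 8 and 5 in the highest cells. Its receptor gene *Tnfrsf12a*, or Fn14, also went to 0, from 37 counts in 8 uninjected cells, but 29 of these lay in 1 cell and the log-fold was -0.17. *Tnfsf12* overlaps *Tnfsfm13* on the same strand, so reads of the shared part cannot be assigned.

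*Ifnar2* encodes a chain of the type I interferon receptor. It went from 63 (48.4 to 80.6) counts in 17.1% (9.66 to 27.0%) of uninjected cells to 2 (0.242 to 7.22) in 3.12% (0.381 to 10.8%) of GSK-J4-treated cells, or 5.90-fold (1.57 to 49.8) lower, with a log-fold of -0.35. One uninjected cell held 40 of the 63 counts, and without the highest cell of each library the log-fold was -0.07. The partner chain *Ifnar1* had 2 and 1 counts, and *Ifnz*, a type I interferon gene, 3 and 0. For interferon gamma, *Ifngr1* had 34 and 8 counts (log-fold 0.21) and *Ifngr2* 17 and 2 (log-fold -0.081). *Ifnar2* overlaps *Gm21970* on the same strand.

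Of the receptors within the threshold and not yet named, *Ccr6*, the receptor of CCL20, had 111 and 25 counts with a log-fold of 0.054. *Il20ra* and *Il20rb*, which form the interleukin-20 receptor, had 46 and 15 counts (log-fold 0.077) and 70 and 24 (0.23). *Il9r* had 52 and 4 counts (log-fold -0.28), *Tnfrsf11a*, or RANK, 22 and 2 (-0.056) and *Il1rap*, the accessory chain of the interleukin-1 receptor, 9 and 7 (0.21). The intervals of the ratio included 1 for *Il9r* (0.108 to 1.12) and *Ccr6* (0.746 to 1.87), and likewise for *Il20ra* (0.903 to 3.17) and *Tnfrsf11a* (0.0553 to 1.97), so no difference was detectable at this depth. They excluded 1 for *Il20rb*, at 1.83-fold (1.10 to 2.95), and *Il1rap*, at 4.15-fold (1.31 to 12.5). Among the 53 genes under the detection limit, log-folds ran from -0.17 to 0.45. The 5 above 0.3 (*Il15ra*, *Tnfsf10*, *Il6ra*, *Tnfrsf13c* and *Tnfsf9*) had at most 8 counts in GSK-J4-treated cells.

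Within the uninjected library, several of the lower genes differed between the sides of the plate. *Cxcl16* had 0 counts in the 39 cells of columns 1 to 6 and 58 in the 43 cells of columns 7 to 12, whereas *Ifnar2* had 62 and 1. *Ccl27a* had 35 and 6 counts, in 14 and 3 cells, or 6.05-fold (2.52 to 17.6) more on the first side. *Ccl9* had 17 and 108, in 7 and 26 cells, 6.13-fold (3.66 to 10.9) more on the last side. The genes thus split in opposite directions, at totals of 546722 and 566702 counts. In all, 8 of the 29 genes had intervals that did not overlap between the sides, against 36.7% of all genes, and in the GSK-J4-treated library 6 of 29 did, against 10.3%. *Cxcl16* could only be lower among wells of the last side, where its log-fold was past -0.3, and *Ifnar2* had a log-fold of 0.14 over those wells. *Ccl9* and *Ccl27a* were lower beyond 0.3 log-fold on both sides. Of the higher genes, *Il12rb1* was found in 11 of 33 and 16 of 31 GSK-J4-treated cells, and *Il23a* in 12 and 15. In summed counts of that library, *Il23a* had 12 on the first side and 49 on the last, and *Il13ra2* 88 and 15. Both were among the 6 genes whose intervals did not overlap, and the intervals of the other higher genes overlapped. A single cell held 35 of the 49 counts of *Il23a*, and another held 69 of the 88 of *Il13ra2*.

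**Figure D4:**
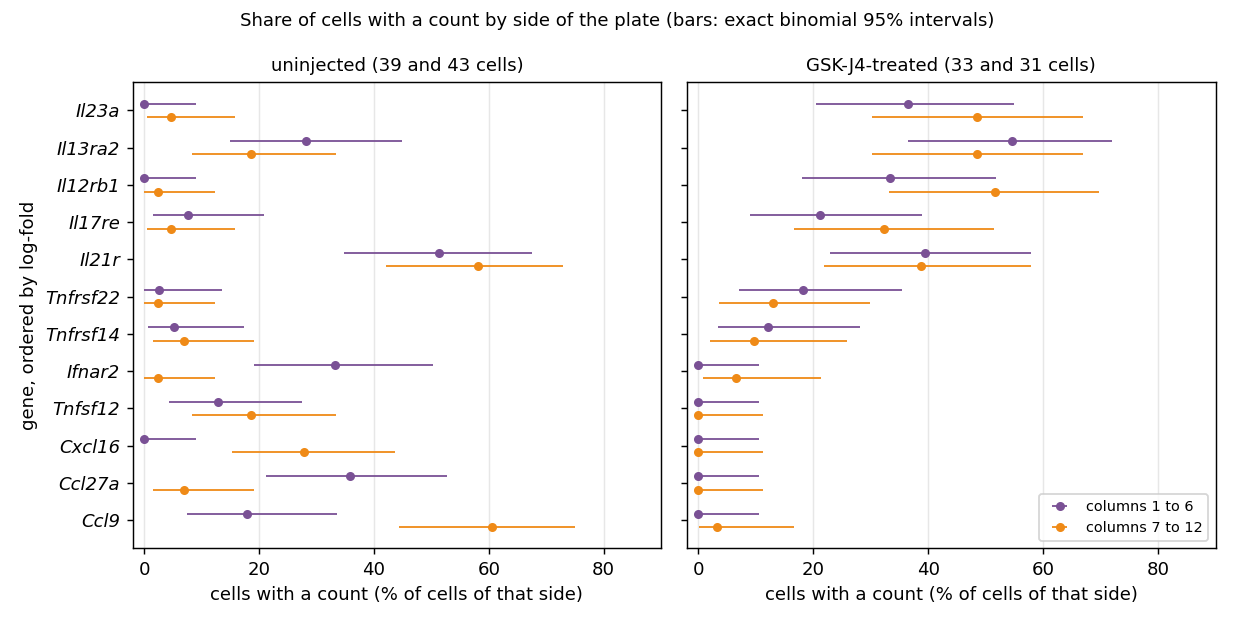
Percent of the cells of each plate side with a count of the 12 genes beyond 0.3 log-fold, with exact binomial 95% intervals, for columns 1 to 6 (purple) and 7 to 12 (orange). In uninjected cells *Ifnar2* and *Ccl27a* lay to the right for columns 1 to 6 and *Cxcl16* and *Ccl9* for columns 7 to 12, while in GSK-J4-treated cells the intervals of the sides overlapped for each of the 12 genes.

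The called genes differed in how far they held under other settings. Under 10 alternative settings of scaling, filter, depth and cells, *Il23a*, *Il12rb1*, *Il17re*, *Ccl9* and *Ccl27a* stayed past 0.3 log-fold in their direction in all 10. *Il13ra2* and *Tnfrsf22* did so in 9, *Cxcl16* in 8, *Tnfsf12* and *Ifnar2* in 7, and *Il21r* and *Tnfrsf14* in 6. These tallies rest on log-folds alone and do not require a gene to pass the detection limit within a setting. *Ccl27a* was near the threshold, at -0.31, with at least 500 genes per cell, with summed libraries and with median-ratio size factors. After thinning, none of the 5 lower genes was found in 10% of the cells, so their call cannot be repeated at equal depth.

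**Figure D5:**
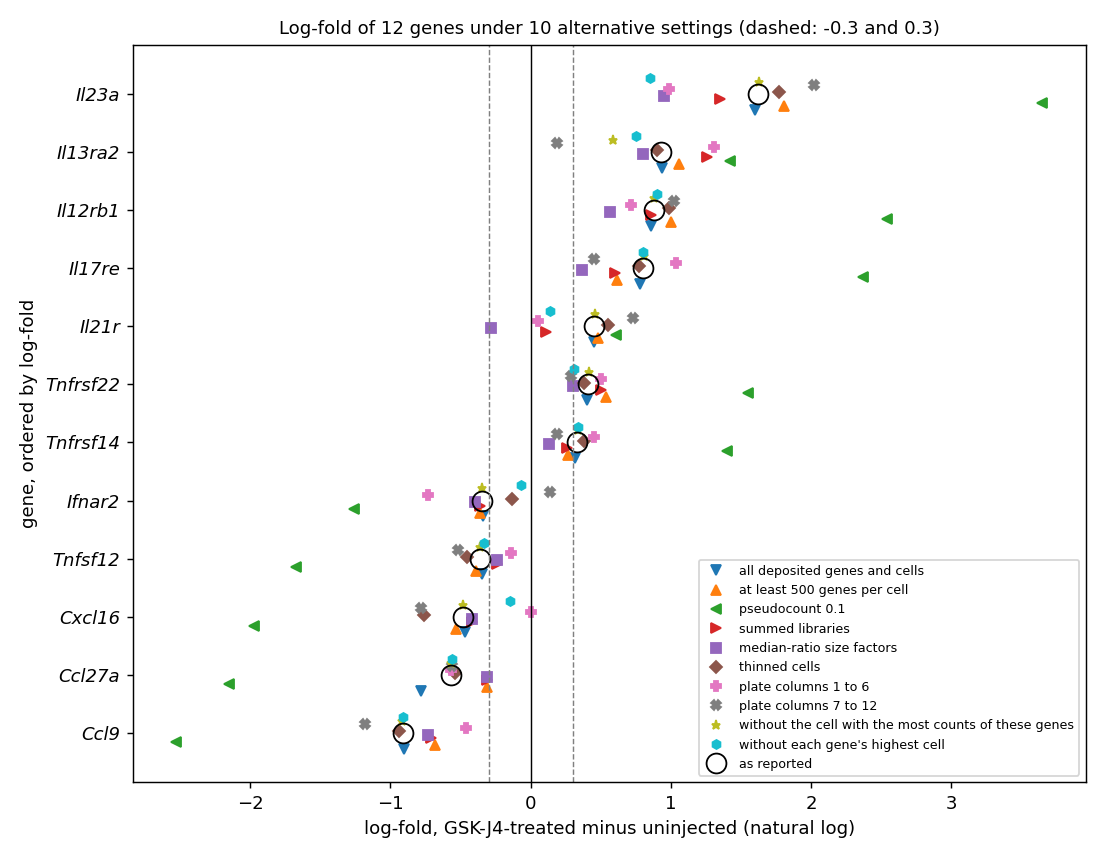
Log-fold (natural log, GSK-J4-treated minus uninjected) of the 12 called genes as reported (open circles) and under 10 alternative settings (symbols), with dashed lines at -0.3 and 0.3. *Il21r*, which ranged from -0.28 to 0.73, and *Ifnar2*, from -1.26 to 0.14, crossed 0, whereas *Il23a* stayed between 0.85 and 3.65 and *Ccl9* between -2.53 and -0.46.

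Downstream of these receptors, the JAK-STAT list had 15 of 26 genes past the detection limit, of which 1 was higher (*Stat2*, from 1 to 8 counts) and 5 were lower, against 20.4% and 24% of all genes. Among these, *Stat5a*, which carries signals of several interleukin receptors, had 425 and 37 counts (log-fold -0.40) and the inhibitor *Socs4* 82 and 1 (-0.68). *Pias3* (-0.31) and *Pias4* (-0.53), which restrain STAT factors, were lower by log-fold too. The Poisson intervals of their summed levels overlapped between the libraries, at ratios of 1.01 and 0.643. A single uninjected cell held 180 of the 425 counts of *Stat5a*, 53 of the 82 of *Socs4*, 27 of the 53 of *Pias3* and 40 of the 108 of *Pias4*. *Tyk2*, a kinase of the interleukin-12 and interleukin-23 receptors, had 16 and 8 counts (0.24) and was within the threshold. Of the NF-kappaB list, 14 of 34 genes were detected, 5 of them higher and 2 lower, beside the same shares of all genes. *Cyld*, a deubiquitinase that restrains the pathway, had 285 and 473 counts (log-fold 2.09), of which 363 lay in 1 cell. *Myd88*, the adaptor of interleukin-1 and Toll-like receptors, had 7 and 23 (0.60), *Traf5* 32 and 15 (0.50) and *Ikbkb* 49 and 20 (0.32). *Tab2* had 0 and 101 counts (1.45), 73 of them in 1 cell. The lower genes were *Nfkb1*, with 67 and 2 counts (-0.60), and *Nfkbib*, with 46 and 1 (-0.40), of which 1 uninjected cell held 39 and 22. Both directions were thus present in each list, and the medians were -0.075 and 0.14.

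Few interferon-stimulated genes passed the detection limit. Of 35 such genes, 6 did, with *Gbp2* (6 and 12 counts, log-fold 0.58) and *Ifi44* (13 and 15, 0.36) higher and *Ifitm3* (114 and 0, -0.76) and *B2m* (28 and 0, -0.32) lower, again against 20.4% and 24% of all genes. All 6 counts of *Gbp2* in uninjected cells came from 1 cell, and 83 of the 114 of *Ifitm3* lay in 1 cell.

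Markers of leukocytes, a main source of cytokines, had no common direction. Of 16 microglia and macrophage markers 5 passed the filter of 3 cells with a count. They had 45 counts without injection and 19 after GSK-J4. Scaled to the library totals this was a ratio of 2.25 (1.24 to 3.93), at 0 to 0.175% and 0 to 0.196% of the counts of a cell. *Csf1r*, *P2ry12*, *Aif1*, *C1qb* and *Tyrobp* were not among the 5 markers that passed the filter. T and natural killer cell markers had 4 of 14 past the filter, with 368 and 23 counts (ratio 0.334, 0.209 to 0.508). In these, *Cd8a* went from 351 to 0 counts and *Cd3g* from 5 to 15. B cell markers had 6 of 8, with 38 and 45 counts (ratio 6.32, 4.01 to 10.0). Neutrophil markers had 3 of 9, with 36 and 11 counts (ratio 1.63, 0.749 to 3.28). The ratio of the olfactory and vomeronasal receptor genes was 2.29. Markers of Müller glia and rods were less abundant after GSK-J4, while those of 2 other cell types were not. Endothelial markers had 8 of 9 past the filter, with 161 and 60 counts (ratio 1.99, 1.45 to 2.69). Retinal pigment epithelium markers had 4 of 8, with 29 and 11 counts (ratio 2.02, 0.913 to 4.18). All 8 Müller glia markers passed the filter, with 1008 and 67 counts (ratio 0.355, 0.273 to 0.455), or 0 to 3.84% and 0 to 0.650% of a cell's counts. *Kcnj10* had no count without injection, and *Apoe* gave 762 of the 1008 counts, 432 of them in 1 cell. All 12 rod markers passed the filter, with 4111 and 56 counts (ratio 0.0727, 0.0548 to 0.0946), or 0.0354 to 7.54% and 0 to 0.409%. *Nr2e3* and *Gngt1* had no count after GSK-J4. The part of other cell types in these values was not tested.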

How the data were processed

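Single GFP-positive cells were sequenced by an adapted SMARTseq2 and MARS-seq method. The deposited values are raw counts for each gene in each cell. Per the methods, reads were demultiplexed, aligned with the CLC Genomics Workbench, cleared of PCR duplicates by a UMI of 8 nt and mapping position, counted with featureCounts on a Gencode annotation, and the 3' and 5' counts summed. The submitters' processing notes name the genome GRCh38, which is a human build number, so positions here come from GENCODE vM21 on GRCm38 and promoter windows from RefSeq.

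Following the study, genes seen in fewer than 3 cells were dropped, then cells under 200 genes or over 5% mitochondrial counts. The batch correction of the study was not applied, no doublet caller was run, and cells were not clustered. Counts of each cell were scaled to 10000 and the library mean was used, with log-folds taken with a pseudocount of 1 over the whole table (Python 3.11.15, pandas 2.3.3, numpy 2.4.6, scipy 1.17.1). With 1 library per group no test was run. Intervals for counts and ratios are exact Poisson or conditional binomial and those for shares of cells Clopper-Pearson, all at 95%, and they leave out variation between animals or plates. Where a library had no count of a gene, 3 counts over that library served as its floor, and folds written as at least set the other library's measured count against this floor. The calculation was tested on simulated Poisson counts, with folds put into genes above 1 count per 10000 of the uninjected library. Most of the genes compared here lie below that level, and their counts can sit in 1 cell, so the simulation does not cover such log-folds.

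Named genes were every one of the symbol set seen in 10% or more of the cells in either library, plus known partners of those past 0.3 log-fold. The gene set, lists and settings were chosen with earlier results of these data known. Alternatives were no filter, at least 500 genes per cell, a pseudocount of 0.1, summed libraries, median-ratio size factors, thinning to 867 counts per cell, each plate side alone, leaving out the cell with the most counts of these genes, and a detection limit of 5%. Leaving out the highest cell of each gene was added after the data were seen. A few single genes are left out of the text.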

Additional observations from a re-analysis of the deposited data

How the results depend on the processing

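Each of the 29 named genes and the summary values were recomputed under the alternatives, giving 335 values, of which 270 moved by less than the limits set, 63 moved by more and 2 took a called gene across 0. The 2 were *Il21r*, at -0.28 with median-ratio size factors, and *Ifnar2*, at 0.14 over plate columns 7 to 12. Values within the threshold crossed 0 too, among them *Il4ra* (-0.10) and *Ifngr1* (-0.071) with median-ratio size factors, *Il20ra* (-0.52) and *Il12b* (-0.18) over columns 1 to 6 and *Il9r* (0.045) over columns 7 to 12. The number of higher genes was 7 as reported, 13 with a pseudocount of 0.1 and 11 with detection in 5% of the cells, where 38.2% and 16.3% of all genes were higher. The number of lower genes was 5 as reported, 8 with a pseudocount of 0.1 (40.9% of all genes) and 0 with thinned cells. There 8 of the set passed the detection limit and 6 were higher, while 46.8% of all 1512 genes were higher and 37.8% lower. Depth thus limits what can be said of the lower genes and of *Tnfrsf22* and *Tnfrsf14*. The median log-fold of 0.072 became 0.18 with at least 500 genes per cell, 0.66 with thinned cells and -0.091 with median-ratio size factors. With that scaling 5 of the 29 genes were higher and 5 lower, while 5.91% of all genes were higher and 29.2% lower. The same scaling moved the median of all genes to -0.12 and their share of higher among called genes from 46.0% to 16.8%. Relative to that median *Il23a* was at 1.07, *Il13ra2* at 0.92, *Il12rb1* at 0.68, *Il21r* at -0.17, *Ccl27a* at -0.20 and *Ccl9* at -0.61. The share of all counts was 0.232% with thinned cells in place of 0.191% in the uninjected library. In the GSK-J4-treated library it was 0.378% with thinned cells, 0.415% over columns 1 to 6, 0.287% over columns 7 to 12 and 0.314% without the cell with the most counts of these genes, in place of 0.341%. Where the alternative's own construction does not show it, the cause was not tested. No paired analysis was possible because there was 1 library per group.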

Other observations

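Some genes of the cytokine system lie outside the symbol rule, and 14 of 51 on a list of them passed the detection limit. *Cmklr1*, the receptor of the chemoattractant chemerin, had 176 (151 to 204) counts after GSK-J4 and 4 (1.09 to 10.2) without injection, in 92.2% and 4.88% of the cells (log-fold 2.45). One cell held 118 of the 176. *Osmr* and *Lifr*, receptor chains of the interleukin-6 family, had 40 and 29 counts (0.69) and 48 and 22 (0.33), and *Tgfb1* had 112 and 58 (0.38), 35 of the 58 in 1 cell. These 4 genes were higher and 2 were lower, against 20.4% and 24% of all genes. *Mif*, a cytokine that is also abundant in many resting cells, had 408 (369 to 449.6) counts in 59.8% of uninjected cells and 0 in GSK-J4-treated cells, at least 25.5-fold lower (log-fold -1.61). *Ackr1*, an atypical chemokine receptor, had 139 and 0 counts (-0.34), 104 of them in 1 cell.

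The median exonic length was 3324 bases for the 7 higher and 3021 for the 5 lower genes, against 6455 over all 1568 higher genes, 2998 over all 1842 lower genes and 5001 over all genes with the same detection.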
